A study of Mus musculus with 6 samples.

Results

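The genes described here are 38 genes of glucose use in skeletal muscle, 27 that carry glucose into the fiber, split it to pyruvate and lactate or set the rate of that pathway, and 11 that break down, build or position glycogen. They were picked by gene symbol from the 27179 genes in each count file. All 38 were listed. After the filter on low counts 37 were tested, and Aldoc, with 4 to 21 reads a library, was not.

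RNA was taken from quadriceps of 3 control mice (libraries B, C and D) and 3 miDrp1KO mice (libraries A, E and F). The miDrp1KO mice carried floxed Dnm1l, the gene of the mitochondrial fission GTPase Drp1, and HSA-MerCreMer, a Cre recombinase that is driven by the human skeletal actin promoter and is active after tamoxifen. The control mice are labelled f/f, the methods allow 1 or both floxed alleles in controls, and whether they carried Cre is not given in the sources used here. By the study's methods, both groups were on a C57BL/6J background and received 50 mg/kg tamoxifen a day for 4 days at 3 months of age. They were studied 3 weeks later after a 6 h fast. The methods name normal chow and a high-fat diet and do not say which the sequenced mice ate. The Cre acts in muscle fibers, so RNA of vessels, nerve, fat and blood in the same piece still carries Dnm1l, and in whole muscle fewer fibers of a type cannot be told apart from less RNA in each fiber. The question addressed was whether loss of Drp1 in adult muscle goes with another level of the glucose and glycogen genes.

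In skeletal muscle, glucose enters through the insulin- and contraction-responsive transporter GLUT4, is trapped by hexokinase and is committed to glycolysis by phosphofructokinase. Glycogen, the fiber's own glucose store, is split by glycogen phosphorylase when phosphorylase kinase activates it, and is built by glycogen synthase and the branching enzyme. Fast fibers are rich in both sets of enzymes, while slow fibers rely more on mitochondria and take up and oxidize lactate.

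Library depth ranged from 13989588 to 62042255 reads assigned to genes, and ribosomal RNA took 1.48 to 24.4% of them. The TMM scaling factors were 0.840, 0.982 and 0.969 in control B, C and D. In miDrp1KO A, E and F they were 0.846, 1.42 and 1.04, and statements on overlap of levels use this scaling alone. Dnm1l, which checks the labels, stood at 156, 114 and 140 CPM (counts-per-million-reads after TMM scaling) in control and at 70.6, 81.3 and 66.2 CPM in miDrp1KO libraries, a log2 fold change of −0.91 ± 0.18 (SE, n = 3 and 3; edgeR adjusted p = 0.362), with no overlap. Control C and miDrp1KO A stood apart from the other libraries at Gapdh and its copies, Pgk1 and Pgam1, which all have near-identical pseudogenes. Of the counts on Gapdh and its 10 listed copies, 86.4% in control C and 87.6% in miDrp1KO A were on Gapdh itself, against 51.7% and 51.9% in control B and D and 33.2% and 38.4% in miDrp1KO E and F. The share on the gene was alike in all 6 libraries at Aldoa (94.5 to 94.9%) and Ldha (98.5 to 99.7%). Values for Gapdh, Pgk1, Pgam1 and Eno1 are uncertain, and members that change without these libraries are given below. Exons of 14 members also overlap an annotated gene, on the opposite strand at Gpi1, Tpi1, Gys1, Phkg1 and Pfkp among others. At Pfkm, Pkm and Pfkfb2 an overlapping gene lies on the same strand, which counting by strand would not resolve. Whether the counting used strand is not given in the sources used here.

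The sum of the 10 slow fiber markers also varied between libraries, from 98.0 to 749.9 CPM in control and from 160 to 1008 CPM in miDrp1KO. None of these markers was at 0 in any library, all 10 were higher in miDrp1KO by their mean fold change, and none passed the test. The fast fiber markers summed to 139004, 152856 and 157650 CPM in control and to 121559, 70532 and 78630 CPM in miDrp1KO libraries, and 10 of 11 were lower. The defining muscle genes were abundant in all 6 libraries, with Ckm, muscle creatine kinase, at 11830 to 16579 CPM in control and 6557 to 12585 CPM in miDrp1KO (−0.46). Acta1, skeletal actin, stood at 17030 to 17847 CPM in control and 8245 to 14183 CPM in miDrp1KO, without overlap (−0.56). Of the 7 skeletal muscle markers, 6 were lower, none passed either threshold, and their median log2 fold change of −0.46 lay below the medians of the glycolysis (−0.25) and glycogen genes (−0.36). All 7 adipocyte markers were lower in miDrp1KO, with sums of 428 to 691 CPM in control and 284 to 408 CPM in miDrp1KO libraries, without overlap. Their median log2 fold change was −1.07. Of these 7, 3 (Adipoq, Plin1 and Cfd) had an unadjusted p under 0.05, which 6.22% of all genes passed in that direction. All 5 endothelial markers were lower too (118 to 234 against 117 to 197 CPM), while all 5 fibroblast (1101 to 1565 against 1251 to 1940 CPM) and all 5 Schwann cell markers (35.7 to 49.9 against 39.6 to 70.8 CPM) were higher, with overlapping sums. The 4 satellite cell markers summed to 9.69 to 10.6 CPM in control and 11.3 to 13.95 CPM in miDrp1KO, without overlap. Of these 4, Pax7, Myf5 and Vcam1 were higher and Calcr was lower (−0.21), each overlapped singly, and Vcam1 made up most of each sum. Of the 5 macrophage markers, 2 were lower and 3 higher, with overlapping sums of 84.1 to 151 CPM in control and 117 to 133 CPM in miDrp1KO, and C1qa alone had an unadjusted p under 0.05 (0.64 ± 0.20). The part of fiber type and of other cells in the results below was not tested beyond the fit with a slow fiber score.

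The regions in front of 4 genes on the glycogen and gluconeogenic side of the pathway are printed here, because they include both directions in the data below: Pygm, Gys1 and Fbp2 had lower means in miDrp1KO and Gbe1 a higher one. Each is the 250 bases before the single start that the RefSeq table lists (GRCm38.p6), read 5′ to 3′ on the gene's strand, with capitals for CANNTG, the E-box core that myogenic factors can bind. The places are chr19:6384158-6384407 (plus strand) for Pygm, chr7:45434589-45434838 (plus strand) for Gys1, chr16:70313699-70313948 (plus strand) for Gbe1 and chr13:62858401-62858650 (minus strand) for Fbp2.
Pygm: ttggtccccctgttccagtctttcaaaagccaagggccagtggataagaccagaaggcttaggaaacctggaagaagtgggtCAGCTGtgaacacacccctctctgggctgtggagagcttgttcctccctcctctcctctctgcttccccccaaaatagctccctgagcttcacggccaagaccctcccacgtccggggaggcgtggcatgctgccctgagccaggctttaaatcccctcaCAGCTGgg
Gys1: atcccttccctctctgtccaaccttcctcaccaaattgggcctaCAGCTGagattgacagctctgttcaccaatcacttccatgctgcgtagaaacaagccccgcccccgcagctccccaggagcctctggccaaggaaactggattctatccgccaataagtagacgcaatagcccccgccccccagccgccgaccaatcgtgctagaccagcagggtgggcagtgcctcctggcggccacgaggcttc
Gbe1: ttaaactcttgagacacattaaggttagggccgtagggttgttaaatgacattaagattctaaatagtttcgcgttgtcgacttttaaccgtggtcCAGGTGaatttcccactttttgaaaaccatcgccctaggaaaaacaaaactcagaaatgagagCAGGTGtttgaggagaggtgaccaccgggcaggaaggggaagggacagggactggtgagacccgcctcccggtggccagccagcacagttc
Fbp2: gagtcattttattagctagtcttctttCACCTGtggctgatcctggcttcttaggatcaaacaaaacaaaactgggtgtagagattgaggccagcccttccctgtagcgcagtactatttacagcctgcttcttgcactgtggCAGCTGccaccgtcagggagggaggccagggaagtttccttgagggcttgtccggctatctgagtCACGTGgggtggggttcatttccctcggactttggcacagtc

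The RefSeq table held regions for 37 of the 38 members, Aldoc included and Slc2a4 not. CANNTG stood in 27 of these 37 (73.0%) and in 66.0% of the 27025 regions of the same length over all genes. ACGTG or GCGTG, the core that hypoxia-inducible factors can bind, searched on both strands, stood in 26 of 37 (70.3%) against 38.6% of all. CACGTG, which is both an E-box and an overlap with ACGTG, stood in 7 of 37 (18.9%) against 6.05%, and Fbp2 holds it. GGGCGG, the core that Sp1 can bind, stood in 20 of 37 (54.1%) against 32.9%, and Gys1 holds it. TATAAA stood in 1 of 37 against 13.0%, at Ppp1r3a. These matches are descriptions of letters, and their relation to the measured levels was not tested.

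Most of the genes of glycolysis and glycogen use had a lower mean in miDrp1KO than in control muscle, yet none of the 37 tested passed an adjusted p of 0.05 in edgeR, where 2 of 16483 genes did (0.0121%). The glycolysis genes were lower in 17 of 26 and the glycogen genes in 7 of 11, against 48.0% of all genes tested. Their median log2 fold changes were −0.25 and −0.36, against 0.02 over all genes. At an unadjusted p under 0.05, 7 glycolysis genes were lower (Hk2, Gpi1, Pfkm, Eno1, Pkm, Pfkfb3 and Fbp2) and 0 higher, and 4 glycogen genes were lower (Pygm, Phka1, Phkb and Gys1) and 1 higher (Gbe1). Over all genes that threshold took 6.22% lower and 4.68% higher. The control and miDrp1KO libraries did not overlap, lower in miDrp1KO, at 9 of the 37 members (Gpi1, Pfkm, Pfkl, Aldoa, Tpi1, Eno1, Pkm, Pygm and Phkb), against 10.3% of all genes, and higher at 1 (Ppp1r3d), against 7.67%. Without the TMM factors miDrp1KO F lies above control B at Aldoa and Tpi1, and miDrp1KO E lies above control B at Pfkl and Eno1. The share over all genes without these factors was not counted.

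These counts rest in part on single libraries, and the share over all genes moved with them. The glycolysis count of 7 was 2 without control D (2.15% of all genes lower in that fit), 3 without control B (3.50%) and 4 without miDrp1KO E (3.91%) or without miDrp1KO F (4.20%). The glycogen count of 4 was 1 without control D, without miDrp1KO E or without miDrp1KO F, and 6 without miDrp1KO A, where 8.90% of all genes were lower. Of the 12 members with an unadjusted p under 0.05, Pygm alone kept it in all 6 fits that left out 1 library, and Pfkm and Pkm lost it only without control D. DESeq2 gave an adjusted p to 30 members and passed 4, namely Pkm (adjusted p = 0.0195), Pfkm (0.0284), Fbp2 (0.0284) and Pygm (0.0313), and 94 genes in all. With control C and miDrp1KO A left out, edgeR passed 2 members, Fbp2 at −1.73 (adjusted p = 0.0127) and Gapdh at −1.33 (adjusted p = 0.0381), and 164 genes in all. Both libraries were left out after they were seen to hold the highest Gapdh values of their groups. That fit thus removes Gapdh's own spread, and Gapdh's adjusted p there is no independent result. Control C and miDrp1KO A also hold the highest Fbp2 values of their groups (60.0 and 30.2 CPM). The adjusted p of Fbp2 in that fit carries the same limit. In that fit Hk2 stood at −1.001, Phka1 at −1.16, Gys1 at −0.85 and Ppp1r3c at −0.80, and Slc2a1 (0.78) and Pgam1 (0.66) were higher at an unadjusted p under 0.05, as were 8.22% of all genes, while 10.3% were lower. Library miDrp1KO A held the highest miDrp1KO value at Hk2, Phka1, Gys1 and Ppp1r3c and the lowest at Slc2a1 and Pgam1. Leaving out miDrp1KO A moves these differences in the direction seen, so they carry the same limit. Both medians stayed below 0 under all 17 alternatives, between −0.36 and −0.15 for glycolysis and between −0.53 and −0.13 for glycogen genes.

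**Figure D1:**
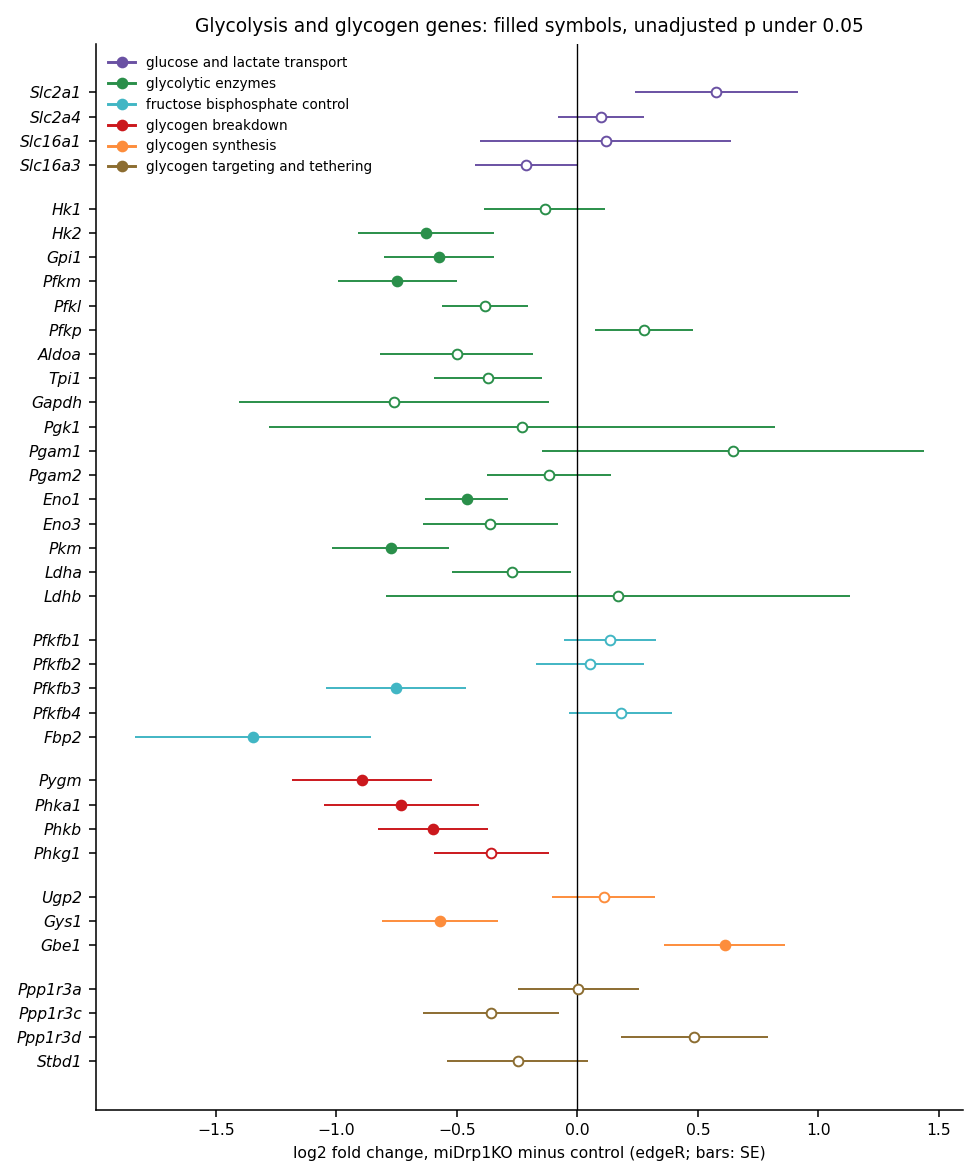
Log2 fold change of the 37 tested members in miDrp1KO against control (x axis, edgeR, bars SE) by role, with filled symbols at an unadjusted p under 0.05. Filled symbols lie left of 0 at 11 genes, with Fbp2 farthest at −1.35, and right of 0 only at Gbe1 (0.61).

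Transport of glucose and lactate showed no gene that passed either threshold with all 6 libraries. Slc2a4, which encodes GLUT4, stood at 238, 256 and 234 CPM in control and at 256, 233 and 289 CPM in miDrp1KO libraries. The groups overlapped, and the difference of 0.10 had a 95% interval from −0.30 to 0.49 on the log2 scale. This difference was 0.172 without miDrp1KO E and 0.0333 without miDrp1KO F. Slc2a1, the basal transporter GLUT1, was scarce at 2.12 to 3.03 CPM in control and 1.99 to 4.99 CPM in miDrp1KO (0.58). It was 0.885 without miDrp1KO A, with an unadjusted p under 0.05 there, 0.315 without miDrp1KO F and 0.179 with the slow fiber score. Per kilobase of exon, Slc2a4 averaged 69.6 CPM and Slc2a1 0.70 CPM in control muscle.

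The lactate carriers differed more between libraries than between groups. Slc16a1, which encodes MCT1, the carrier of slow fibers, ranged from 22.3 CPM in control C to 81.9 CPM in control B, and the 3 libraries with the highest slow fiber sums (control B, miDrp1KO E and miDrp1KO F) also held its 3 highest values. Its log2 fold change of 0.12 became −0.22 with a slow fiber score in the fit. Slc16a3, which encodes MCT4, the exporter of fast fibers, stood at 81.3 to 112 CPM in control and 63.7 to 104 CPM in miDrp1KO.

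At the entry step, Hk2, the muscle hexokinase, stood at 348, 217 and 269 CPM in control and 227, 204 and 110 CPM in miDrp1KO libraries. The groups overlapped at control C and miDrp1KO A, and the log2 fold change was −0.63 ± 0.28 (edgeR adjusted p = 0.455). It was −0.35 without miDrp1KO F and −0.42 without control B. Hk1, the hexokinase of many other cells, stood at 8.88 to 16.8 CPM with a log2 fold change of −0.14. Hk2 made up 96.7 to 97.0% of the 2 hexokinases per kilobase in control and 94.7 to 96.8% in miDrp1KO libraries.

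Gpi1, which turns glucose-6-phosphate into fructose-6-phosphate, had tight control values of 611, 607 and 632 CPM and lower, wider miDrp1KO values of 514, 301 and 427 CPM. It stood at 67.1% of control (log2 fold change −0.57 ± 0.23, edgeR adjusted p = 0.416).

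Pfkm, the muscle phosphofructokinase and the committed step of glycolysis, stood at 2220, 2116 and 2325 CPM in control and at 1661, 1189 and 1120 CPM in miDrp1KO libraries. Every miDrp1KO library was below every control, at 59.6% of control on average (log2 fold change −0.75 ± 0.25, edgeR adjusted p = 0.382). Over the 17 alternatives its log2 fold change lay between −1.004 and −0.62. The liver form Pfkl stood at 8.29, 8.02 and 8.73 CPM in control and 6.08, 7.04 and 6.05 CPM in miDrp1KO, also without overlap (−0.38 ± 0.18). The platelet form Pfkp stood at 8.26 to 9.33 CPM in control and 7.82 to 12.6 CPM in miDrp1KO (0.28). It was 0.107 without miDrp1KO E and 0.464 without miDrp1KO F, with an unadjusted p under 0.05 in the latter. Pfkm was 99.4 to 99.7% of the 3 phosphofructokinases per kilobase in all libraries.

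Aldoa, the muscle aldolase and the most abundant member, stood at 8098, 10104 and 9561 CPM in control and 7124, 4417 and 8081 CPM in miDrp1KO libraries. The highest miDrp1KO library, F, lay just under the lowest control, B, and the log2 fold change was −0.50 ± 0.32 (edgeR adjusted p = 0.583), or −0.28 without miDrp1KO E. Aldoc, the brain aldolase, had 4, 4 and 17 reads in control and 8, 12 and 21 reads in miDrp1KO libraries. Tpi1, triosephosphate isomerase, stood at 1140, 1297 and 1373 CPM in control and 967, 836 and 1140 CPM in miDrp1KO, where miDrp1KO F and control B nearly touched (−0.37 ± 0.22).

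Gapdh, glyceraldehyde-3-phosphate dehydrogenase and a common reference gene, stood at 406, 781 and 418 CPM in control and at 614, 132 and 201 CPM in miDrp1KO libraries. Control C and miDrp1KO A were the highest of their groups, the same libraries in which most counts of the family lay on Gapdh itself. With the 10 copies added, the values were 786, 904 and 806 CPM in control and 701, 398 and 525 CPM in miDrp1KO. The groups then no longer overlapped, and the log2 fold change was −0.62 (edgeR adjusted p = 0.407) in place of −0.76 ± 0.64 (adjusted p = 0.712). Gapdh alone, without its copies, stood at −1.66 without miDrp1KO A (edgeR adjusted p = 0.0766), at −0.40 without control C, at −0.39 without miDrp1KO E and at −0.505 without miDrp1KO F. The copy Gapdh-ps15 alone held 157 and 154 CPM in control B and D but 7.36 CPM in control C, and 112 and 117 CPM in miDrp1KO E and F but 2.48 CPM in miDrp1KO A. Among annotated mouse transcripts, 75 pseudogenes shared at least 200 bases at 95% identity or more with Gapdh, and 8 other members (Gpi1, Tpi1, Pgk1, Pgam1, Eno1, Pkm, Ldha and Ldhb) had 1 to 4 such pseudogenes each.

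**Figure D2:**
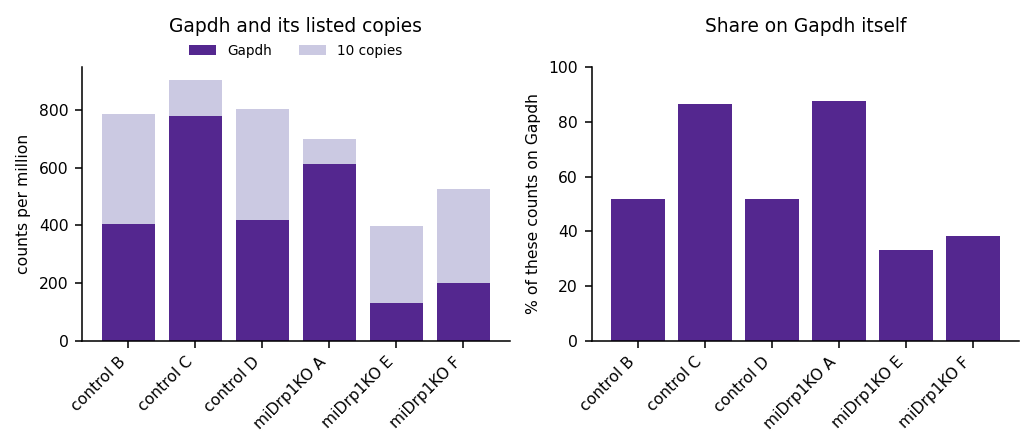
Left, CPM on Gapdh and on its 10 listed copies in each library; right, the percentage of those counts that lay on Gapdh. Control C (86.4%) and miDrp1KO A (87.6%) stand above the other 4 libraries (33.2 to 51.9%), while the stacked totals are 786 to 904 CPM in control and 398 to 701 CPM in miDrp1KO.

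Pgk1, phosphoglycerate kinase, showed the same pair of libraries in the other direction, with 17.6 CPM in control C and 13.4 CPM in miDrp1KO A against 93.5 to 113 CPM in the other 4. Its difference of −0.23 had a 95% interval from −3.04 to 2.59, which gives no usable direction. Pgam1, the non-muscle phosphoglycerate mutase, was likewise lowest in control C (0.87 CPM, 12 reads) and miDrp1KO A (1.41 CPM, 29 reads), against 4.11 to 7.18 CPM in the others. Its log2 fold change was 0.65, and ran from 0.227 without control C to 1.10 without miDrp1KO A. Pgam2, the muscle mutase, stood at 1076 to 1260 CPM in control and 793 to 1434 CPM in miDrp1KO (−0.12), and made up at least 99.6% of the pair per kilobase.

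Eno3, the muscle enolase, stood at 3383 to 3988 CPM in control and 2064 to 3531 CPM in miDrp1KO (−0.36 ± 0.28, or −0.16 without miDrp1KO E). Eno1, the general enolase, stood at 11.2, 10.4 and 11.3 CPM in control and at 7.49, 7.43 and 9.07 CPM in miDrp1KO, without overlap (−0.46 ± 0.17, edgeR adjusted p = 0.400). Its near-identical copy Eno1b held more reads than Eno1 in every library but control C, and with both added the values were 26.2, 18.2 and 29.7 CPM in control and 16.6, 21.4 and 23.0 CPM in miDrp1KO. The groups then overlapped, the log2 fold change was −0.28 (edgeR adjusted p = 0.638), and the unadjusted p was no longer under 0.05. With copies added, the 7 glycolysis genes below that threshold held Gapdh in place of Eno1.

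Pkm, pyruvate kinase, whose muscle form makes pyruvate and ATP at the last step of glycolysis, stood at 2289, 2579 and 2844 CPM in control and 1718, 1242 and 1547 CPM in miDrp1KO libraries. The highest miDrp1KO library, A, lay well below the lowest control, B, and the fitted level was 58.4% of control (log2 fold change −0.78 ± 0.24, edgeR adjusted p = 0.380, the lowest of all members). Under the alternatives Pkm lay between −0.91 and −0.66.

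Neither subunit of lactate dehydrogenase passed a threshold. Ldha, the muscle subunit, stood at 1027, 1322 and 1225 CPM in control and at 935, 769 and 1257 CPM in miDrp1KO libraries (−0.27, 95% interval −0.81 to 0.27), or −0.12 without miDrp1KO E and −0.465 without miDrp1KO F. Ldhb, the heart subunit that favors lactate oxidation, stood at 245, 25.7 and 112 CPM in control and at 55.7, 160 and 216 CPM in miDrp1KO libraries. The control libraries alone spanned the whole range of Ldhb. It was lowest in control C and miDrp1KO A, and went from 0.17 to −0.49 with the slow fiber score in the fit. Its share of the 2 subunits per kilobase ran from 3.94% in control C to 33.5% in control B.

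**Figure D3:**
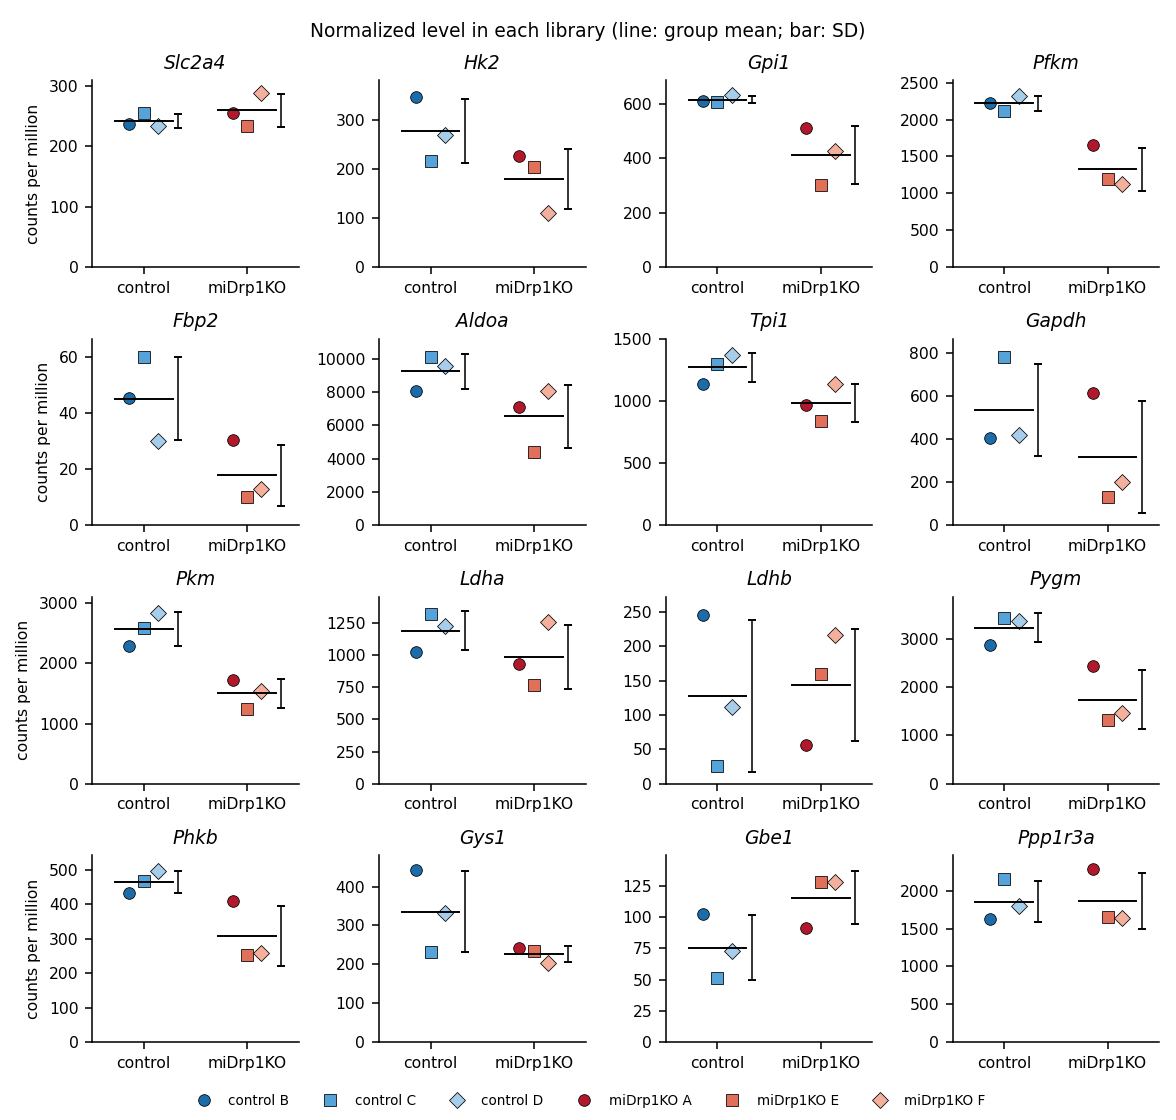
Level in CPM of 16 members in each of the 6 libraries, with the group mean (line) and SD (bar). Control and miDrp1KO libraries do not overlap at Gpi1, Pfkm, Aldoa, Tpi1, Pkm, Pygm and Phkb, and they overlap at Slc2a4, Hk2, Fbp2, Gapdh, Ldha, Ldhb, Gys1, Gbe1 and Ppp1r3a.

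The genes that set fructose bisphosphate levels were split. Fbp2, muscle fructose-1,6-bisphosphatase, which runs opposite to phosphofructokinase and serves glycogen making from lactate, stood at 45.4, 60.0 and 30.1 CPM in control and at 30.2, 10.2 and 12.9 CPM in miDrp1KO libraries. The groups touched at control D and miDrp1KO A, and the level was 39.4% of control (log2 fold change −1.35 ± 0.49, edgeR adjusted p = 0.426), the largest difference of any member. Pfkfb3, an enzyme that makes the phosphofructokinase activator fructose-2,6-bisphosphate, stood at 285, 607 and 333 CPM in control and 297, 216 and 214 CPM in miDrp1KO libraries. Its log2 fold change of −0.75 ± 0.29 (edgeR adjusted p = 0.409) was −0.37 without control C. The related Pfkfb1 (25.7 to 40.0 CPM over all libraries), Pfkfb2 (26.8 to 45.8 CPM) and Pfkfb4 (19.5 to 33.7 CPM) had log2 fold changes of 0.14, 0.05 and 0.18. Pfkfb4 was 0.0441 without control B and 0.386 without control C. With the slow fiber score it was 0.407, with an unadjusted p under 0.05 there.

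Of the 4 genes of glycogen breakdown, all had lower means in miDrp1KO, with a median log2 fold change of −0.66, where 48.0% of all genes were lower. Of these, 3 had an unadjusted p under 0.05, which 6.22% of all genes passed in that direction, and Phka1 and Phkb lost it in 4 and 3 of the 6 fits that left out 1 library. Pygm, muscle glycogen phosphorylase, stood at 2881, 3431 and 3372 CPM in control and at 2439, 1317 and 1463 CPM in miDrp1KO libraries. The groups did not overlap, and the gene stood at 53.9% of control (log2 fold change −0.89 ± 0.29, edgeR adjusted p = 0.382), and it kept an unadjusted p under 0.05 in all 17 alternatives, between −1.20 and −0.71. Library miDrp1KO A was nearer to the controls than miDrp1KO E and F.

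Phosphorylase kinase, the activator of Pygm, had its highest miDrp1KO values in miDrp1KO A at Phkb, Phka1 and Phkg1. Its regulatory subunit Phkb stood at 431, 469 and 496 CPM in control and at 408, 254 and 260 CPM in miDrp1KO libraries, without overlap (−0.60 ± 0.23, edgeR adjusted p = 0.405). The muscle regulatory subunit Phka1 stood at 842, 1148 and 1325 CPM in control and 1010, 551 and 439 CPM in miDrp1KO, where miDrp1KO A lay among the controls (−0.73 ± 0.32, edgeR adjusted p = 0.446). It was −1.14 without miDrp1KO A and −0.48 without miDrp1KO F, and its unadjusted p was not under 0.05 without control C, control D, miDrp1KO E or miDrp1KO F. The catalytic subunit Phkg1 stood at 301, 391 and 412 CPM in control and at 359, 209 and 294.5 CPM in miDrp1KO libraries (−0.36 ± 0.24). At Phkg1 miDrp1KO F lay nearer to miDrp1KO A than to miDrp1KO E, and just under control B. Phkg1 was −0.17 without miDrp1KO E and −0.524 without miDrp1KO A, with an unadjusted p under 0.05 in the latter only. Summed, the 4 genes gave 4455, 5439 and 5606 CPM in control and 4216, 2330 and 2456 CPM in miDrp1KO libraries.

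The 3 genes of glycogen synthesis did not move one way. Gys1, muscle glycogen synthase, stood at 442, 232 and 333 CPM in control and at 241, 236 and 202 CPM in miDrp1KO libraries. Control C lay within the miDrp1KO range, and the log2 fold change of −0.57 ± 0.24 (edgeR adjusted p = 0.432) was −0.30 without control B. Gbe1, the branching enzyme, was the only member higher at an unadjusted p under 0.05, with 103, 51.1 and 73.3 CPM in control and 91.0, 128 and 128 CPM in miDrp1KO libraries (0.61 ± 0.25, edgeR adjusted p = 0.426). Library miDrp1KO A lay below control B there, the difference was 0.37 without control C, and its unadjusted p was not under 0.05 without control C, control D, miDrp1KO E or miDrp1KO F. Ugp2, which makes the UDP-glucose that Gys1 adds to glycogen, stood at 868 to 1146 CPM in control and 1042 to 1109 CPM in miDrp1KO (0.11). Its log2 fold change was 0.240 without control B and 0.0390 without control D.

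The proteins that hold phosphatase 1 or membranes to glycogen showed no gene at an unadjusted p under 0.05 with all 6 libraries. Ppp1r3a, the large muscle targeting subunit, averaged 1859 ± 272 CPM in control and 1865 ± 371 CPM in miDrp1KO (SD, n = 3 each), with a 95% interval of the log2 difference from −0.55 to 0.55. Ppp1r3c, another targeting subunit, stood at 503 to 601 CPM in control and 276 to 623 CPM in miDrp1KO (−0.36). It was −0.72 without miDrp1KO A, with an unadjusted p under 0.05 there, and −0.13 without miDrp1KO E. Ppp1r3d was scarce at 1.89, 1.17 and 1.67 CPM in control and 2.24, 2.53 and 1.92 CPM in miDrp1KO libraries. Control B and miDrp1KO F nearly touched, and the log2 fold change was 0.49 ± 0.31, or 0.317 without control C. Stbd1, which ties glycogen to membranes, stood at 31.3 to 53.3 CPM in control and 22.7 to 48.5 CPM in miDrp1KO (−0.25).

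**Figure D4:**
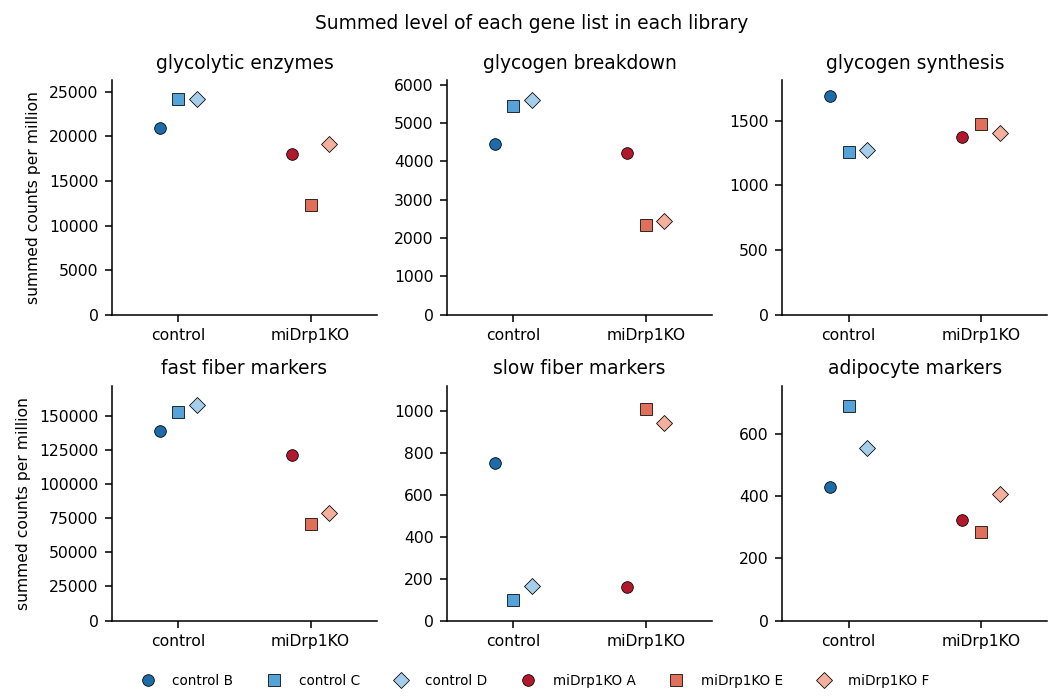
Summed CPM of 3 member lists (top) and 3 marker lists (bottom) in each library. Glycogen breakdown sums to 4455 to 5606 CPM in control and 2330 to 4216 CPM in miDrp1KO, and the fast fiber sum shows miDrp1KO E and F at 70532 and 78630 CPM against 139004 to 157650 CPM in control.

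As totals, the 18 glycolytic enzymes summed to 20997, 24210 and 24165 CPM in control and to 18070, 12250 and 19200 CPM in miDrp1KO libraries, without overlap, and Aldoa and Eno3 made up most of each sum. This separation depends on the TMM scaling, and without its factors the sum in miDrp1KO F lies above that in control B. The fast fiber markers beside them include Myh4, the myosin of the fastest fibers, at −1.29 ± 0.47, Actn3, fast alpha-actinin, at −0.95 ± 0.37, and Atp2a1, the fast fiber calcium pump, at −0.64 ± 0.29 on the log2 scale, each with an unadjusted p under 0.05. Libraries miDrp1KO E and F had the lowest fast fiber sums and also the lowest Pfkm, Pygm and Phka1. At Aldoa, Tpi1, Pgam2, Eno3 and Ldha, in contrast, miDrp1KO F was the highest miDrp1KO library. With a slow fiber score in the fit, 21 of 26 glycolysis genes were lower with a median of −0.34, and the glycogen median was −0.18, with 5 and 3 genes lower at an unadjusted p under 0.05, where that fit took 5.78% of all genes lower and 4.35% higher.

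Ratios between related members in the same library do not depend on the scaling of that library. Of 10 ratios compared by an exact two-sided permutation test over libraries, whose smallest possible p with 3 against 3 is 0.1, 2 reached that value. Pfkl plus Pfkp against Pfkm was higher in every miDrp1KO library, by 0.74 on the log2 scale (Benjamini-Hochberg adjusted exact p = 0.5), and so was Aldoc against Aldoa, by 1.43 (adjusted exact p = 0.5). The latter ratio rests on 4 to 21 Aldoc reads a library, too few to pass the filter on low counts. The log2 ratio of Hk1 to Hk2 was −4.37, −4.42 and −4.52 in control and −4.42, −3.71 and −3.63 in miDrp1KO libraries, so that miDrp1KO A sat with the controls. Ratios of Ldhb to Ldha, Slc2a1 to Slc2a4, Slc16a1 to Slc16a3, Pgam1 to Pgam2, Eno1 to Eno3, Gys1 to Pygm and Fbp2 to Pfkm overlapped between groups.

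**Figure D5:**
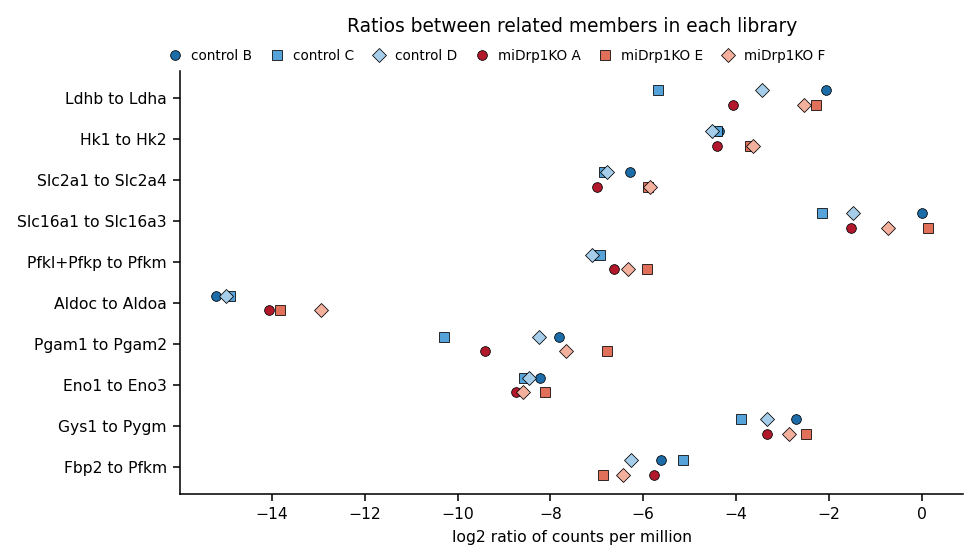
Log2 ratio of CPM between related members (x axis) in each library, controls in blue above and miDrp1KO in red below in each row. The groups separate at Pfkl plus Pfkp to Pfkm and at Aldoc to Aldoa, where the 3 miDrp1KO libraries lie to the right. Aldoc had 4 to 21 reads a library.

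Other genes of the same pathways, on lists that hold no member, are given by count, beside 6.22% of all genes lower and 4.68% higher at an unadjusted p under 0.05. Of 21 other glycolysis genes tested, 9 were lower and 12 higher, and at an unadjusted p under 0.05 2 were lower, Bpgm, which makes 2,3-bisphosphoglycerate (−0.51), and Gpd1, glycerol-3-phosphate dehydrogenase (−0.67). On that list 3 were higher, Mpc2, a subunit of the mitochondrial pyruvate carrier (0.51), and Hk3 (0.91) and Fbp1 (1.28), both at 2.72 CPM or less in every library. Mpc1, on the same list, stood at 64.1 CPM in control C and 65.0 CPM in miDrp1KO A, against 214 to 422 CPM in the other libraries. Its log2 fold change was 0.73 ± 0.89, and it did not pass the unadjusted threshold. Of 20 other glycogen genes tested, 14 were lower and 6 higher, and 3 were lower at that threshold. These were Gaa, the lysosomal enzyme that degrades glycogen (−0.82 ± 0.22, 138, 127 and 135 CPM against 101, 71.3 and 53.9 CPM), Epm2a, the glycogen phosphatase laforin (−0.46), and Gsk3a, a kinase that inhibits glycogen synthase (−0.50).

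Of 10 genes that control glucose uptake, 9 were lower, where 48.0% of all genes were, and 1 of them, Rac1, a small GTPase of GLUT4 traffic, at an unadjusted p under 0.05 (−0.52 ± 0.19). Of 12 transcription factors known to act on glycolysis genes, 9 were lower and 3 higher, with Mef2d (−0.62) and Eya1 (−0.38) lower at that threshold, which 6.22% of all genes passed in that direction. Hif1a, the hypoxia-inducible factor subunit, stood at 61.2 to 71.4 CPM in control and 59.7 to 76.4 CPM in miDrp1KO (0.04). No gene on these 4 lists passed the adjusted p in edgeR.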

How the data were processed

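Total RNA of quadriceps was depleted of ribosomal RNA and made into stranded libraries, which were sequenced in 2 pools. The labels do not place libraries in the pools, so a pool effect was not tested. Per the study's methods the authors counted reads per gene with Rsubread on GRCm38, and the deposited files hold these raw read counts. The submitters' notes name DESeq2 1.30.0.

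Groups came from the genotype labels. edgeR 4.0.16 (TMM scaling, filterByExpr, robust quasi-likelihood test, R 4.3.3) was fitted to all 16483 genes that passed, with Benjamini-Hochberg adjustment over all of them. CPM use the TMM library sizes, intervals are 95% t intervals from that fit, and ratios of counts, with 0.5 added to each, were compared by exact permutation. Libraries are from 3 and 3 mice, and no separate days are labelled. The edgeR p-values set the group difference against the spread between mice, with spread estimates partly shared over genes. Values per kilobase use the union of GENCODE vM21 exons, and similar transcripts were found with BLAST+ 2.17.0. DESeq2 1.42.0, limma voom 3.58.1, scalings, filters, covariates and left-out libraries were alternatives. The plain edgeR, DESeq2 and limma voom fits were tested on simulated data, with less spread between replicates than in these libraries. The other alternatives were not run on simulated data. The 38 members and the lists were chosen with earlier results of these data known. Every member is named, with values in each library for those with an unadjusted p under 0.05, non-overlapping groups, or a fixed place on the list (Slc2a4, Hk2, Pfkm, Gapdh, Ldha, Ldhb, Pygm and Gys1).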

Additional observations from a re-analysis of the deposited data

How the results depend on the processing

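Of 17 alternatives, 2 were added after seeing the data (control C and miDrp1KO A left out, and counts of near-identical copies added). The number of members with an adjusted p under 0.05 was 0 in edgeR, 4 with DESeq2 and 2 with control C and miDrp1KO A left out, and 0 in every fit that left out 1 library. With those 2 libraries left out, 2 glycolysis genes were higher at an unadjusted p under 0.05, and 18 members lay lower and 4 higher without overlap, where 2 against 2 libraries separate 26.0% of all genes lower and 24.8% higher. Glycolysis genes higher at that threshold numbered 1 with the slow fiber score, namely Pfkfb4. Glycogen genes lower at that threshold numbered 2 with upper quartile scaling (3.88% of all genes lower), 2 with at least 10 counts in every library (6.03%) and 2 where the share of ribosomal RNA entered the fit (4.58%), which also left 0 higher, against 6.22% of all genes in the main comparison. Over the fits that each left out 1 library, glycolysis genes lower at that threshold ranged from 2 to 7 and higher from 0 to 1, glycogen genes lower from 1 to 6 and higher from 0 to 1 (2.15 to 8.90% of all genes lower and 3.21 to 8.55% higher), members without overlap from 9 to 16 lower (12.6 to 20.4% of all genes over the same libraries) and from 1 to 4 higher (10.7 to 16.8%), and the medians from −0.360 to −0.182 for glycolysis and from −0.524 to −0.132 for glycogen genes. The causes of these shifts were not tested.

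Signs turned at 10 members, 0 of which had an unadjusted p under 0.05 with all 6 libraries in edgeR. With the slow fiber score, log2 fold changes became −0.223 for Slc16a1, −0.346 for Pgam1, −0.491 for Ldhb, −0.186 for Pfkfb2 and 0.0357 for Stbd1. With control C and miDrp1KO A left out they became −0.0364 for Slc16a1 and −0.0791 for Ppp1r3a. Ppp1r3a was also −0.00650 in limma voom and −0.0385 with the ribosomal RNA share. Over fits without 1 library, values ranged from −0.242 to 0.756 for Slc16a1, −0.407 to 0.115 for Hk1, −0.724 to 0.278 for Pgk1, −0.369 to 0.0613 for Pgam2, −0.337 to 1.08 for Ldhb, −0.00362 to 0.374 for Pfkfb1, −0.173 to 0.250 for Pfkfb2, −0.149 to 0.107 for Ppp1r3a, −0.480 to 0.00755 for Stbd1, −0.202 to 1.61 for the log2 ratio of Ldhb to Ldha and −0.252 to 0.0638 for that of Eno1 to Eno3. No paired analysis was possible because no letter marks a control and a miDrp1KO library alike.

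Depth limits Aldoc, Ppp1r3d, Pgam1 and Slc2a1, which had under 300 reads in every library.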
